A study of Mus musculus with 8 samples.

Results

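The genes described here encode interleukin-15 (Il15), the alpha chain of its receptor (Il15ra), and receptor chains of the interleukin-2 and interleukin-4 group (Il2ra, Il2rg, Il4ra, Il13ra1 and Il21r). They were chosen by name, and every probe set that the platform annotation assigns to 1 of them was taken. Of the 7 genes, 6 had such a probe set, 14 probe sets in all, among 12394 named genes and 22690 probe sets on the array. Il2rg was not analysed here. All 6 genes passed the filter on dim values through at least 1 probe set, and 11 of the 14 probe sets passed it. Il2ra passed only through the wild-type array at 24 h of lipopolysaccharide (LPS).

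Expression was measured on Affymetrix arrays in macrophages grown for 7 days with M-CSF from the bone marrow of C57BL/6 mice aged 6 to 8 weeks. There was 1 array for each of 8 groups. The groups were Cd14-/- cells unstimulated and after 6 h and 24 h with 1 µg/ml LPS, wild-type cells given LPS in the presence of EGTA for 6 h and 24 h, and wild-type cells unstimulated and after 6 h and 24 h with LPS. CD14 is the surface protein that passes LPS to its receptor complex, and the labels do not name the deletion allele. EGTA binds calcium outside the cell. Its concentration, 2 mM, is stated for 24 h only, and no array held EGTA without LPS. The LPS given to wild-type cells is described as smooth, while the protocol of the Cd14-/- cells does not say which form was used. Unstimulated cells were harvested 24 h after plating. The series' title and text name calcium flux and the activation of NFAT, a calcium-dependent transcription factor, as what was to be told apart from unrelated consequences of the knockout or of the chelator.

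IL-15 is made by macrophages and dendritic cells and sustains natural killer cells and memory T cells. The producing cell holds it on its surface with the IL-15 receptor alpha chain and presents it to cells that carry the IL-2 receptor beta chain and the common gamma chain, which Il2rg encodes. The same gamma chain serves the receptors for IL-2, IL-4, IL-7, IL-9 and IL-21, while the IL-4 receptor alpha chain can also pair with the IL-13 receptor alpha 1 chain. These receptors signal through JAK kinases and STAT proteins, and in macrophages IL-4 and IL-13 act mainly through STAT6.

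Values are quantile-normalized intensities, raised where needed to a floor of 38.4, the 40th percentile of all values. Differences are on the log2 scale. A gene was compared between 2 arrays if the brighter exceeded 88.2, the median of all values, and a difference of at least 2-fold was counted. No difference between single arrays has a replicate check, so none carries a p-value. Where 1 of the arrays stood at the floor, the difference is the smallest it can be and is written "at least". In bulk RNA of this kind, fewer expressing cells and less RNA per cell cannot be told apart. Levels are not compared between genes, because probe sets differ in brightness.

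The labels were checked first. Cd14 was at the floor on all 3 Cd14-/- arrays, at 11088 and 5998 with EGTA, and at 3849, 12515 and 8564 in wild type at 0, 6 and 24 h. All 7 macrophage markers with a probe set, among them Csf1r and Cd68, were above the filter. Of T cell genes, Cd3e, Cd3g, Cd3d and Cd8a were at the floor on all 8 arrays. So were the natural killer cell genes Ncr1, Nkg7, Gzma and Gzmb and all 4 B cell genes measured. Some other genes of these lists were not, with Cd247 at 110 in Cd14-/- cells at 6 h of LPS. Cd4 reached 136 with EGTA at 24 h, and Klrk1 511 in wild type at 24 h of LPS. Of 5 dendritic cell genes, 4 were at the floor on all 8 arrays. The remaining gene, Itgax, had 406, 264 and 207 at 0, 6 and 24 h in Cd14-/- cells. With EGTA it had 101 and 207, and in wild type 299, 144 and 147. The part of these cell types in the results was not tested. The summed intensity of 7 macrophage markers ran from 51664 to 61512 on the 3 Cd14-/- arrays and from 49591 to 58101 on the 5 wild-type arrays. That of 5 neutrophil markers ran from 244 to 729 on the Cd14-/- arrays and from 253 to 585 on the wild-type arrays, highest at 24 h of LPS in each, with S100a9 at the floor throughout, and its part in the results was not tested. Interferon response genes set the unstimulated arrays apart. Of 13 compared, 11 were at least 2-fold lower in unstimulated Cd14-/- cells than in wild type, beside 3.2% of all genes lower and 1.4% higher. The median log2 difference was -4.65, against 0.02 for all genes. Ifit1, an antiviral gene, stood at 67.5 in Cd14-/- and 2704 in wild type. Its part in the LPS responses below was not tested.

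The ligand gene Il15 (probe set 1418219_at) had 505, 5168 and 1444 at 0, 6 and 24 h in Cd14-/- cells, 6534 and 4653 at 6 and 24 h with EGTA, and 854, 6118 and 4214 at 0, 6 and 24 h in wild type. The Cd14-/- array at 6 h and all 4 wild-type LPS arrays were high, and the Cd14-/- array at 24 h stood between these and the unstimulated arrays. At 6 h the LPS response was 10.2-fold in Cd14-/- cells and 7.17-fold in wild type. At 24 h it was 2.86-fold in Cd14-/- cells and 4.93-fold in wild type. Between 6 h and 24 h the level was 3.58-fold lower at the later time in Cd14-/- cells, 1.40-fold lower with EGTA and 1.45-fold lower in wild type.

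Il15ra, which encodes the chain that holds and presents IL-15, was near or at the floor before LPS. Its brighter probe set, 1448681_at, had 38.4, 913 and 414 at 0, 6 and 24 h in Cd14-/- cells, 2072 and 1819 with EGTA, and 64.3, 1911 and 1780.3 in wild type. All 6 LPS arrays lay far above both unstimulated ones, and both Cd14-/- LPS arrays lay below all 4 wild-type LPS arrays. The response was at least 23.8-fold at 6 h and at least 10.8-fold at 24 h in Cd14-/- cells, and 29.7-fold and 27.7-fold in wild type. The other probe set of the gene, read on the same arrays, gave 13.8-fold and 5.68-fold in Cd14-/- cells and 32.0-fold and 30.9-fold in wild type. Its unstimulated values, 48.6 and 46.0, were close to the floor, so the size of these folds is imprecise. Over the 8 arrays the log2 values of both probe sets had a Pearson correlation of 0.99.

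**Figure D1:**
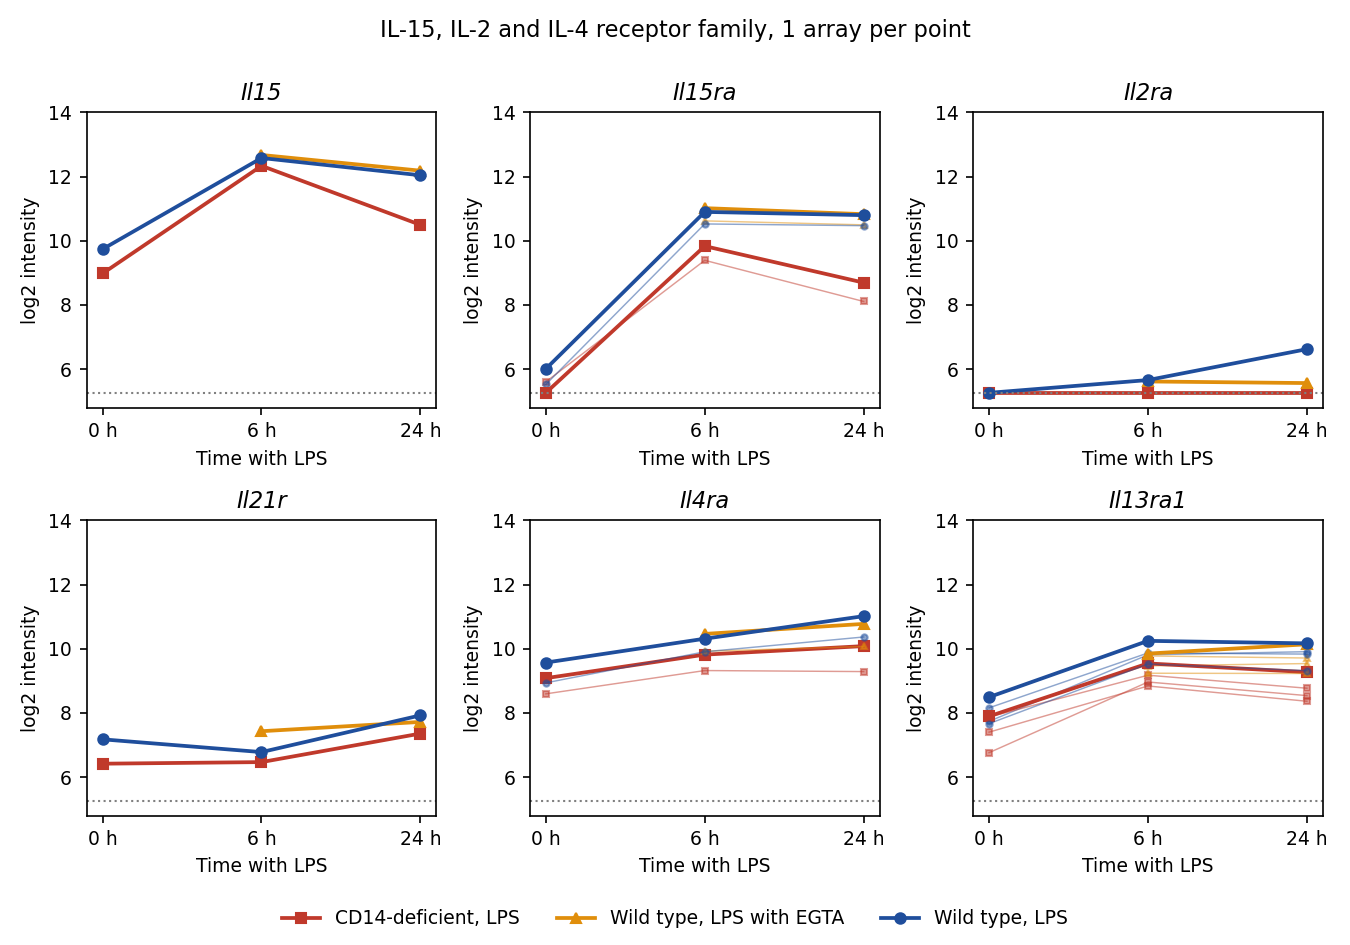
Log2 intensity (y axis) against time with LPS (x axis) for 6 genes, with Cd14-/- cells in red, wild type with EGTA in orange and wild type in blue. Each point is 1 array, the thick line is the probe set with the highest mean, thin lines are further probe sets above the filter, and the dotted line is the floor of 38.4. At 24 h the Il15 line of Cd14-/- cells (1444) lies below those of EGTA and wild type (4653 and 4214).

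Promoter sequences of RefSeq, build GRCm38.p6, were found for 6 of the 7 genes, all but Il15, in 7 windows. They are shown for Il15ra, which had the largest differences with LPS and with CD14 loss among the members, and for Il2ra, whose window held a kappa B type match. Il15ra has 2 windows, from 2 annotated starts. Each line gives the 250 bases before a start on the plus strand, except the last, which gives 30 bases that lie after the downstream Il15ra start. Capitals mark matches on either strand to an interferon response type motif, GAAANNGAA, or to a kappa B type motif, written GGGA, then 4 bases of any kind, then CC.
Il15ra upstream start, chr2:11705043-11705292: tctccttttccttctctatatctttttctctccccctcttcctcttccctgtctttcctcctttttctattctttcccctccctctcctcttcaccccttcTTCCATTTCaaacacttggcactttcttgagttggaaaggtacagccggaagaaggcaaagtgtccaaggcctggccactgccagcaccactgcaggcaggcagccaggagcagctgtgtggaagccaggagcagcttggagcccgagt
Il15ra downstream start, chr2:11705462-11705711: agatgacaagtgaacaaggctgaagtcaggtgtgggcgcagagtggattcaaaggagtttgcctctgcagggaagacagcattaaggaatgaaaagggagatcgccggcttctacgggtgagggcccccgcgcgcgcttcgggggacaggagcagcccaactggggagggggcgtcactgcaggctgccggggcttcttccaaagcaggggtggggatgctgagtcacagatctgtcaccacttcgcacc
Il15ra downstream start, chr2:11705732-11705761: aagcaaaagcGAAAGCGAAtactccttagc
Il2ra, chr2:11642542-11642791: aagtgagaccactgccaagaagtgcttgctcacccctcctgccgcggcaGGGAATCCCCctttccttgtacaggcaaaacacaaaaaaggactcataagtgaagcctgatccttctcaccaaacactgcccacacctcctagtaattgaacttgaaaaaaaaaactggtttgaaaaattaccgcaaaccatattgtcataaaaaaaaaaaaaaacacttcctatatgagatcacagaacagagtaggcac

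The upstream Il15ra window held 1 interferon response type match before the start, on the minus strand, and 7.13% of all 32851 promoter windows held at least 1 in their 250 bases. The downstream Il15ra window had no capitals before the start and held the motif at base 31 after it, and 8.56% of windows held it when the 50 bases after the start were added. Extending the search past the start was decided after the sequences had been seen. A kappa B type match before the start was found for Il2ra, Il21r and Il13ra1, against 17.6% of windows. An NFAT type match, TGGAAA, was found for Il15ra and Il2rg, against 18.6%. No member window held the STAT6 type motif, TTC and GAA 4 bases apart, which 5.85% of windows hold. TGGAAA ends in the letters with which GAAANNGAA begins, so these motifs can overlap. A match or its absence describes these letters only.

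By their brightest probe sets the IL-4 and IL-13 receptor genes had smaller responses than Il15 and Il15ra. A further Il13ra1 probe set gave 3.43-fold at 24 h in Cd14-/- cells, against 2.86-fold for Il15. Il4ra (1421034_a_at), the gene of the chain that binds IL-4, had 542, 901 and 1083 at 0, 6 and 24 h in Cd14-/- cells, 1409.6 and 1749.7 with EGTA, and 759, 1271 and 2068 in wild type. By this probe set the level was higher at each later time in both genotypes. The 24 h response was 1.999-fold in Cd14-/- cells, just short of the 2-fold count, and 2.73-fold in wild type. A further probe set gave 1.62-fold in Cd14-/- cells and 2.69-fold in wild type at 24 h, and the gene's remaining probe set was below the filter throughout.

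Il13ra1 (1451775_s_at), whose product binds IL-13 and pairs with the IL-4 receptor alpha chain, had 238, 745 and 617 at 0, 6 and 24 h in Cd14-/- cells, 922 and 1126 with EGTA, and 359.95, 1213 and 1149 in wild type. Each of the 3 Cd14-/- arrays was lower than its wild-type counterpart, and all LPS arrays exceeded both unstimulated ones. The 6 h response was 3.13-fold in Cd14-/- cells and 3.37-fold in wild type. The other 3 probe sets above the filter gave 2.46-fold to 4.60-fold in Cd14-/- cells and 3.27-fold to 4.21-fold in wild type. At 24 h the response was 2.60-fold in Cd14-/- cells and 3.19-fold in wild type. The probe sets disagreed on the 2-fold count there, since the other 3 gave 1.86-fold, 1.95-fold and 3.43-fold in Cd14-/- cells. The remaining probe set, at 56.1 or less on all arrays, was not compared.

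Il2ra (1420691_at) encodes CD25, the IL-2 receptor alpha chain best known from activated and regulatory T cells. It was at the floor on all 3 Cd14-/- arrays, at 49.1 and 47.4 with EGTA at 6 and 24 h, and at 38.4, 50.6 and 98.6 in wild type at 0, 6 and 24 h. Only the wild-type array at 24 h exceeded the filter, at least 2.57-fold above the unstimulated one. That call was lost as deposited (0.999 on the log2 scale) and with the floor at the 50th percentile (0.16). The second probe set stood at 50.9 on that array and at the floor on the other 7. Of natural killer cell markers, Klrk1, which encodes the activating receptor NKG2D, followed the same arrays in part, with 47.5 or less on the Cd14-/- arrays, 293 and 414 with EGTA, and 38.4, 333 and 511 in wild type, while the other 5 markers with a probe set were at the floor on all 8 arrays. The summed intensity of the 6 ran from 230.2 to 239 on the Cd14-/- arrays and from 230.2 to 703 on the wild-type arrays. Of 6 T cell markers, 4 were at the floor on all 8 arrays, and their sum ran from 230.2 to 342 on the Cd14-/- arrays and from 264 to 328 on the wild-type arrays. The part of either cell type in the Il2ra values was not tested.

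Il21r (1450456_at), the IL-21 receptor gene, was dim throughout. It had 85.4, 88.4 and 164 at 0, 6 and 24 h in Cd14-/- cells, 172 and 211 with EGTA, and 145, 109.8 and 243 in wild type. In both genotypes the 24 h array was the highest. The 24 h response was 1.92-fold in Cd14-/- cells and 1.68-fold in wild type, under the 2-fold count in each. As deposited, without normalization, the wild-type difference at 24 h was -0.01 in place of 0.75 on the log2 scale. The median of all genes as deposited was -0.66 in that comparison.

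Counted over the family, LPS gave at least 2-fold higher levels in 3 of 5 genes compared at 6 h in Cd14-/- cells (Il15, Il15ra and Il13ra1), where 10.3% of all genes were higher and 8.99% lower, and in 3 of 5 in wild type, where 10.5% were higher and 9.5% lower. At 24 h it was 3 of 5 in Cd14-/- cells, against 8.29% higher and 8.77% lower of all genes, and 5 of 6 in wild type, against 10.6% and 10.7%. The wild-type count at 24 h was 4 of 5 without Il2ra, which was compared only because that array itself passed the filter. Il15ra likewise entered every LPS comparison only through its LPS arrays. Its unstimulated values, 38.4 in Cd14-/- cells and 64.3 in wild type, were below the filter. It was kept in all these counts and medians. No member was at least 2-fold lower with LPS in either genotype. The median log2 difference of the members compared was 1.65 at 6 h and 1.38 at 24 h in Cd14-/- cells, and 1.75 and 1.56 in wild type (1.67 at 24 h without Il2ra). The medians of all genes compared lay between -0.13 and -0.04. The 6 h and 24 h responses of a genotype share its unstimulated array.

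**Figure D2:**
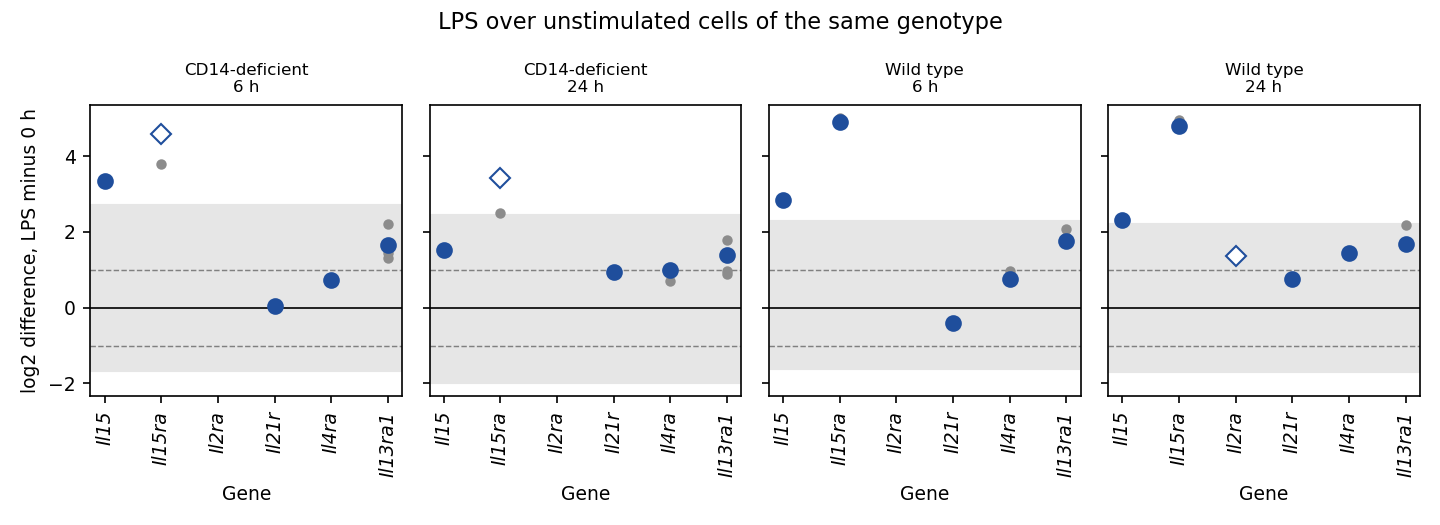
Log2 difference between LPS and unstimulated cells (y axis) for each gene (x axis), in Cd14-/- cells at 6 h and 24 h and then in wild type at 6 h and 24 h. Large blue points are the brightest probe set, small grey points further probe sets, open diamonds bounds, dashed lines 2-fold, and the grey band holds the central 95% of all genes compared. Il15ra lies above the band in all 4 panels. Its brighter probe set runs from at least 3.43 in Cd14-/- cells at 24 h to 4.89 in wild type at 6 h. The other runs from 2.51 to 5.00 in the same panels.

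A linear model in limma, with additive terms for time and condition over all 8 arrays, gave a test of the LPS effect. With 3 residual degrees of freedom, its error reflects how far the arrays depart from additive effects and says nothing of the spread between cultures. At 6 h Il15, Il15ra, Il13ra1 and Il4ra rose with limma adjusted p-values of 0.0035, 0.0018, 0.0034 and 0.023, in a fit where 27.5% of 7292 genes passed the threshold of 0.05. The log2 effects were 2.98 ± 0.33 (SE) for Il15, 4.66 ± 0.32 for Il15ra, 1.62 ± 0.18 for Il13ra1 and 0.77 ± 0.17 for Il4ra. The 24 h effect passed for the same 4 genes, where 26.7% of all genes passed, at 2.03 ± 0.33 for Il15, 4.18 ± 0.32 for Il15ra, 1.60 ± 0.18 for Il13ra1 and 1.19 ± 0.17 for Il4ra, with limma adjusted p-values of 0.011, 0.0024, 0.0038 and 0.0076. Il21r (0.72 ± 0.23, limma adjusted p = 0.063) and Il2ra (0.59 ± 0.33, limma adjusted p = 0.22) did not pass at 24 h. Without the EGTA arrays Il4ra no longer passed at 6 h (limma adjusted p = 0.068), and as deposited it passed at neither time (0.35 at 6 h and 0.051 at 24 h).

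Every member compared was lower in Cd14-/- cells than in wild type. For Il15 and Il15ra the difference was largest at 24 h of LPS, both normalized and as deposited. For Il4ra and Il13ra1 it was largest at 24 h when normalized (-0.93 and -0.90), but as deposited at 6 h (-0.84 and -1.03, against -0.68 and -0.54 at 24 h), and for Il21r before LPS. As deposited the median of all genes was -0.27 at 6 h and 0.43 at 24 h. The order of times for Il4ra and Il13ra1 thus depends on the scaling of the arrays. At 24 h Il15 had 1444 in Cd14-/- cells and 4214 in wild type, 2.92-fold lower, Il15ra had 414 and 1780.3, 4.30-fold lower, and Il2ra was at least 2.57-fold lower, a call lost in the same ways as its LPS response. Il4ra and Il13ra1 were 1.91-fold and 1.86-fold lower, and Il21r 1.48-fold. Of the further probe sets above the filter, that of Il15ra was 5.14-fold lower, that of Il4ra 2.11-fold, and those of Il13ra1 1.94-fold to 2.58-fold. Thus 3 of 6 members were at least 2-fold lower, where 6.21% of all genes were lower and 5.21% higher. Il2ra entered the comparison only through the wild-type array in which it was high, and without it the count was 2 of 5 (Il15 and Il15ra), with a median log2 difference of -0.93 against 0.02 for all genes. Scaled to equal medians in place of quantiles, Il4ra and Il13ra1 were at least 2-fold lower too. Of 14 interferon response genes compared at 24 h, 4 were at least 2-fold lower in Cd14-/- cells and 1 higher, with a median of -0.73. Among them Ifnb1, which encodes interferon beta, was at least 5.85-fold and Irf1, an interferon-induced transcription factor gene, 2.63-fold lower. Their part in the Il15 and Il15ra values was not tested.

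At 6 h of LPS, 1 of 5 members was at least 2-fold lower in Cd14-/- cells, beside 3.08% of all genes lower and 2.53% higher. That was Il15ra, with 913 in Cd14-/- cells and 1911 in wild type, 2.09-fold lower, and 2.19-fold by its other probe set. Il15 had a log2 difference of -0.24, Il4ra -0.50, Il13ra1 -0.70 and Il21r -0.31. As deposited, Il13ra1 was also at least 2-fold lower, at -1.03, where the median of all genes was -0.27. Before LPS, none of 4 members compared differed at least 2-fold, beside 3.2% of all genes lower and 1.4% higher. Their log2 differences were -0.76 for Il15, -0.76 for Il21r, -0.60 for Il13ra1 and -0.49 for Il4ra, while Il15ra and Il2ra were below the filter on both arrays.

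The wild-type LPS array also enters the EGTA comparisons, so the Cd14-/- arrays were set against the wild-type arrays with EGTA too, a choice made after the data were seen. At 24 h Il15 was 3.22-fold, Il15ra 4.39-fold, Il13ra1 1.82-fold and Il4ra 1.62-fold lower in Cd14-/- cells than in wild type with EGTA. At 6 h Il15ra was 2.27-fold lower and Il15 1.26-fold. In the additive limma fit the CD14 effect averaged over times was -1.30 ± 0.27 for Il15ra, -0.85 ± 0.28 for Il15, -0.73 ± 0.15 for Il13ra1, -0.64 ± 0.14 for Il4ra, -0.59 ± 0.28 for Il2ra and -0.55 ± 0.19 for Il21r. None of the 6 passed after adjustment (limma adjusted p from 0.13 to 0.32), in a fit where 0.453% of all genes did, and 5 of 6 had an unadjusted p under 0.05, as had 18.8% of all genes. As deposited, Il15ra passed at -1.42 with a limma adjusted p of 0.0011.

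The LPS responses of the genotypes were also set side by side, and the difference between them was not tested. For Il15 the log2 response in Cd14-/- cells minus that in wild type was 0.51 at 6 h and -0.79 at 24 h. For Il15ra this difference was -0.32 at 6 h and -1.36 at 24 h by the brighter probe set, whose response in Cd14-/- cells is a lower bound. By the other it was -1.21 and -2.44. With the floor at the 20th percentile the brighter probe set had 6 h responses of 5.42 in Cd14-/- cells and 4.89 in wild type. The sign at 6 h by that probe set thus depends on the floor. At 24 h these responses were 4.28 and 4.79. For Il4ra the difference between genotypes was -0.01 and -0.45, and for Il13ra1 it was -0.10 and -0.30. For Il21r it was 0.45 and 0.19. At 24 h the Cd14-/- response was thus the smaller for the first 4 of these genes and the larger for Il21r. As deposited the 24 h response of Il13ra1 was 1.12 on the log2 scale in both genotypes. The medians of all genes as deposited were unequal there, at -0.20 in Cd14-/- cells and -0.66 in wild type. Equal responses of Il13ra1 are therefore not shown.

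With EGTA the levels of most of the family lay close to those with LPS alone. At 6 h none of 5 members compared differed at least 2-fold, beside 0.549% of all genes higher and 0.267% lower. Il15 had 6534 with EGTA and 6118 without, and Il15ra 2072 and 1911, while Il13ra1 had 922 and 1213. Il21r stood highest, at a log2 difference of 0.65, just outside the central 95% of all genes, whose upper end was 0.60. As deposited the median of all genes was -0.78, and Il15, Il15ra, Il4ra and Il21r had log2 differences of -0.49, -0.64, -0.65 and -0.15, so their sign at 6 h depends on the scaling. Il13ra1 was then at least 2-fold lower, at -1.21.

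**Figure D3:**
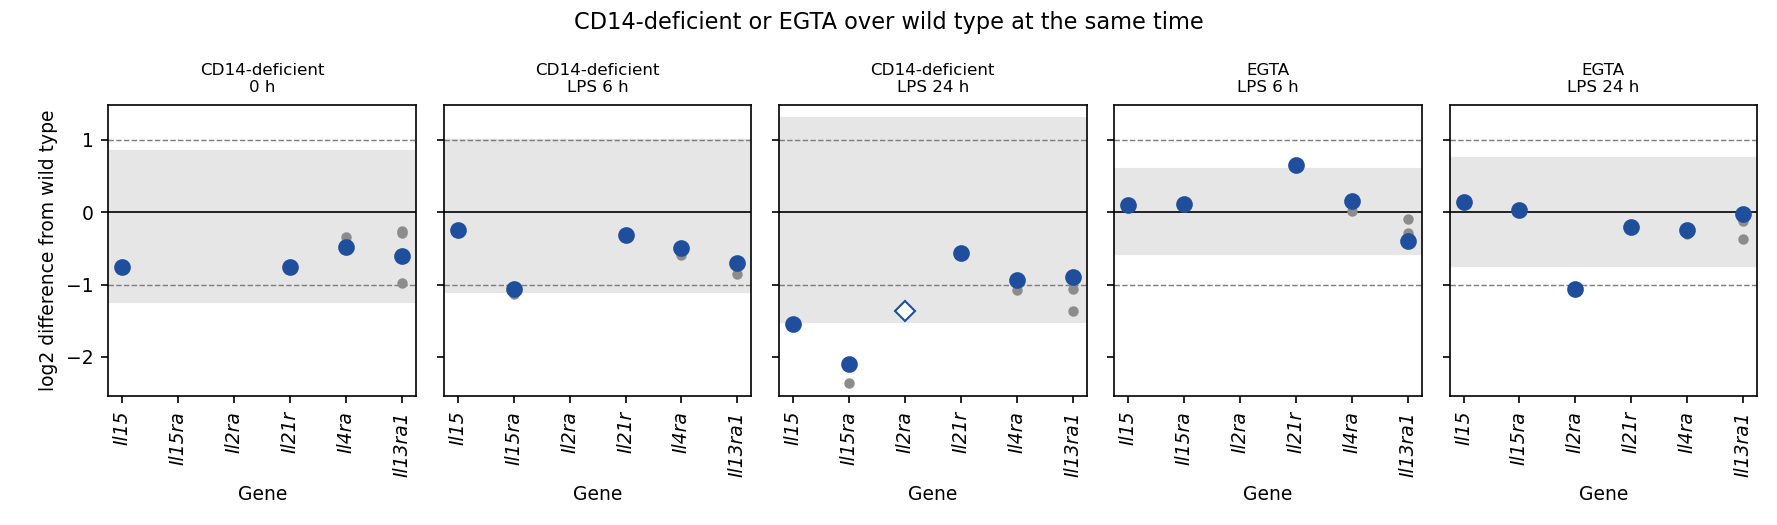
Log2 difference from wild type at the same time (y axis) for each gene (x axis), for Cd14-/- cells at 0, 6 and 24 h of LPS and for EGTA at 6 and 24 h. Points, diamonds, dashed lines and the grey band are drawn as in the plot of LPS responses. All points drawn for Cd14-/- cells lie below 0, down to -2.36 at 24 h for a probe set of Il15ra, while the EGTA points of Il15 and Il15ra lie between 0.03 and 0.14.

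At 24 h with EGTA 1 of 6 members was at least 2-fold lower, beside 1.11% of all genes lower and 1.02% higher. That was Il2ra, with 47.4 with EGTA and 98.6 with LPS alone, 2.08-fold lower. It was compared only through the array with LPS alone, and without it the count was 0 of 5. Both values lie near the floor, and the difference was -0.84 on the log2 scale as deposited, -0.98 with equal medians and -0.16 with the floor at the 50th percentile. The other members lay between -0.24 for Il4ra and 0.14 for Il15. In the additive limma fit the EGTA term passed for 0% of genes. Of all genes 5.69% had an unadjusted p under 0.05, and none of the 6 members did. The 95% confidence interval of the EGTA effect ran from -0.66 to 0.95 on the log2 scale for Il15, from -0.58 to 1.00 for Il15ra, from -0.61 to 0.25 for Il13ra1 and from -0.42 to 0.40 for Il4ra, so equal levels with and without EGTA are not shown.

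Among 16 related cytokine and receptor chain genes on the array, 11 were at the floor on all 8 arrays. They include Il2, Il4, Il13 and Il21, which encode ligands of these receptors, and Il2rb, the chain that receives presented IL-15 on responding cells. Il7, a ligand of a gamma chain receptor, was at the floor in both unstimulated arrays. At 6 and 24 h it had 67.2 and 63.9 in Cd14-/- cells, 146 and 143 with EGTA, and 144 and 105.8 in wild type. Il7r, which encodes the alpha chain of its receptor, had 4029, 2591 and 1011 at 0, 6 and 24 h in Cd14-/- cells, 2272 and 2835 with EGTA, and 5259, 2616 and 3986 in wild type. At 6 h of LPS 1 of 5 genes of this list compared was at least 2-fold lower in Cd14-/- cells than in wild type, Il7 by 2.14-fold, beside 3.08% of all genes. At 24 h 2 of 5 were at least 2-fold lower in Cd14-/- cells than in wild type, Il7r by 3.94-fold and Il3ra by 2.39-fold, beside 6.21% of all genes.

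Of the kinases and STAT proteins below cytokine receptors, Jak2, which serves several of them, was 12.5-fold higher at 6 h of LPS in Cd14-/- cells and 14.6-fold in wild type. Stat5a, which IL-15 and IL-2 activate, was 5.36-fold higher in Cd14-/- cells and 4.54-fold in wild type, and Stat3 3.20-fold and 5.09-fold. In all, at 6 h 5 of 15 genes of this list were at least 2-fold higher in Cd14-/- cells and none lower, beside 10.3% higher and 8.99% lower of all genes. In wild type 5 were higher and 1 lower, beside 10.5% and 9.5%. The 1 lower was Stat6, with 1492 at 6 h of LPS and 2263 unstimulated in Cd14-/- cells, and with 1179 at 6 h and 2503 unstimulated in wild type. With LPS for 24 h, 5 of 15 were at least 2-fold higher in Cd14-/- cells and none lower, beside 8.29% and 8.77% of all genes. In wild type 4 of 15 were higher and none lower, beside 10.6% and 10.7%. At 24 h of LPS Tyk2 and Stat3 were 2.14-fold and 2.08-fold lower in Cd14-/- cells than in wild type, 2 of 15 compared beside 6.21% of all genes lower, and no gene of the list was at least 2-fold higher. EGTA gave no 2-fold difference in the list at either time.

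Targets and feedback genes of STAT5 and STAT6 included Socs3 and Socs1, which encode inhibitors of JAK signalling. With LPS the list went both ways. At 6 h, 5 of 13 compared were at least 2-fold higher and 3 lower in Cd14-/- cells, beside 10.3% and 8.99% of all genes. In wild type 8 of 14 were higher and 2 lower, beside 10.5% and 9.5%. At 24 h, 4 of 14 were higher and 5 lower in Cd14-/- cells, beside 8.29% and 8.77%. In wild type 7 were higher and 3 lower, beside 10.6% and 10.7%. Socs1 was higher at 6 h of LPS by at least 7.77-fold in Cd14-/- cells and 8.04-fold in wild type. Against wild type it was at least 2.30-fold lower in Cd14-/- cells before LPS and 2.38-fold lower at 6 h. At 24 h of LPS it was 3.60-fold lower in Cd14-/- cells than in wild type. There Klf4, a transcription factor gene, was 6.00-fold lower, and Socs2, another inhibitor gene, at least 5.68-fold lower. Ccl22, a chemokine gene that IL-4 induces, had 619 in Cd14-/- cells, 406 with EGTA and 405 in wild type at 6 h of LPS. At 24 h it had 176 in Cd14-/- cells, 213 with EGTA and 442 in wild type. Retnla, Chil3, Ccl24, Fcer2a, Alox15 and Cdh1 of this list were at the floor on all 8 arrays, and Arg1 on 7. Of this list 6 of 12 compared were at least 2-fold lower in Cd14-/- cells than in wild type at 24 h of LPS and none higher, with a median of -0.98, beside 6.21% of all genes lower and 5.21% higher. At 6 h 3 of 12 were lower, beside 3.08% of all genes. Before LPS 3 of 13 were already lower and none higher, beside 3.2% of all genes lower and 1.4% higher. They were Ccl17 by at least 3.09-fold, Socs3 by 2.40-fold and Socs1 by at least 2.30-fold. With EGTA 1 of 12 was at least 2-fold higher at 6 h, the chemokine gene Ccl17 by 2.15-fold, beside 0.549% of all genes, and 1 of 12 lower at 24 h, Ccl22 by 2.08-fold, beside 1.11%.

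**Figure D4:**
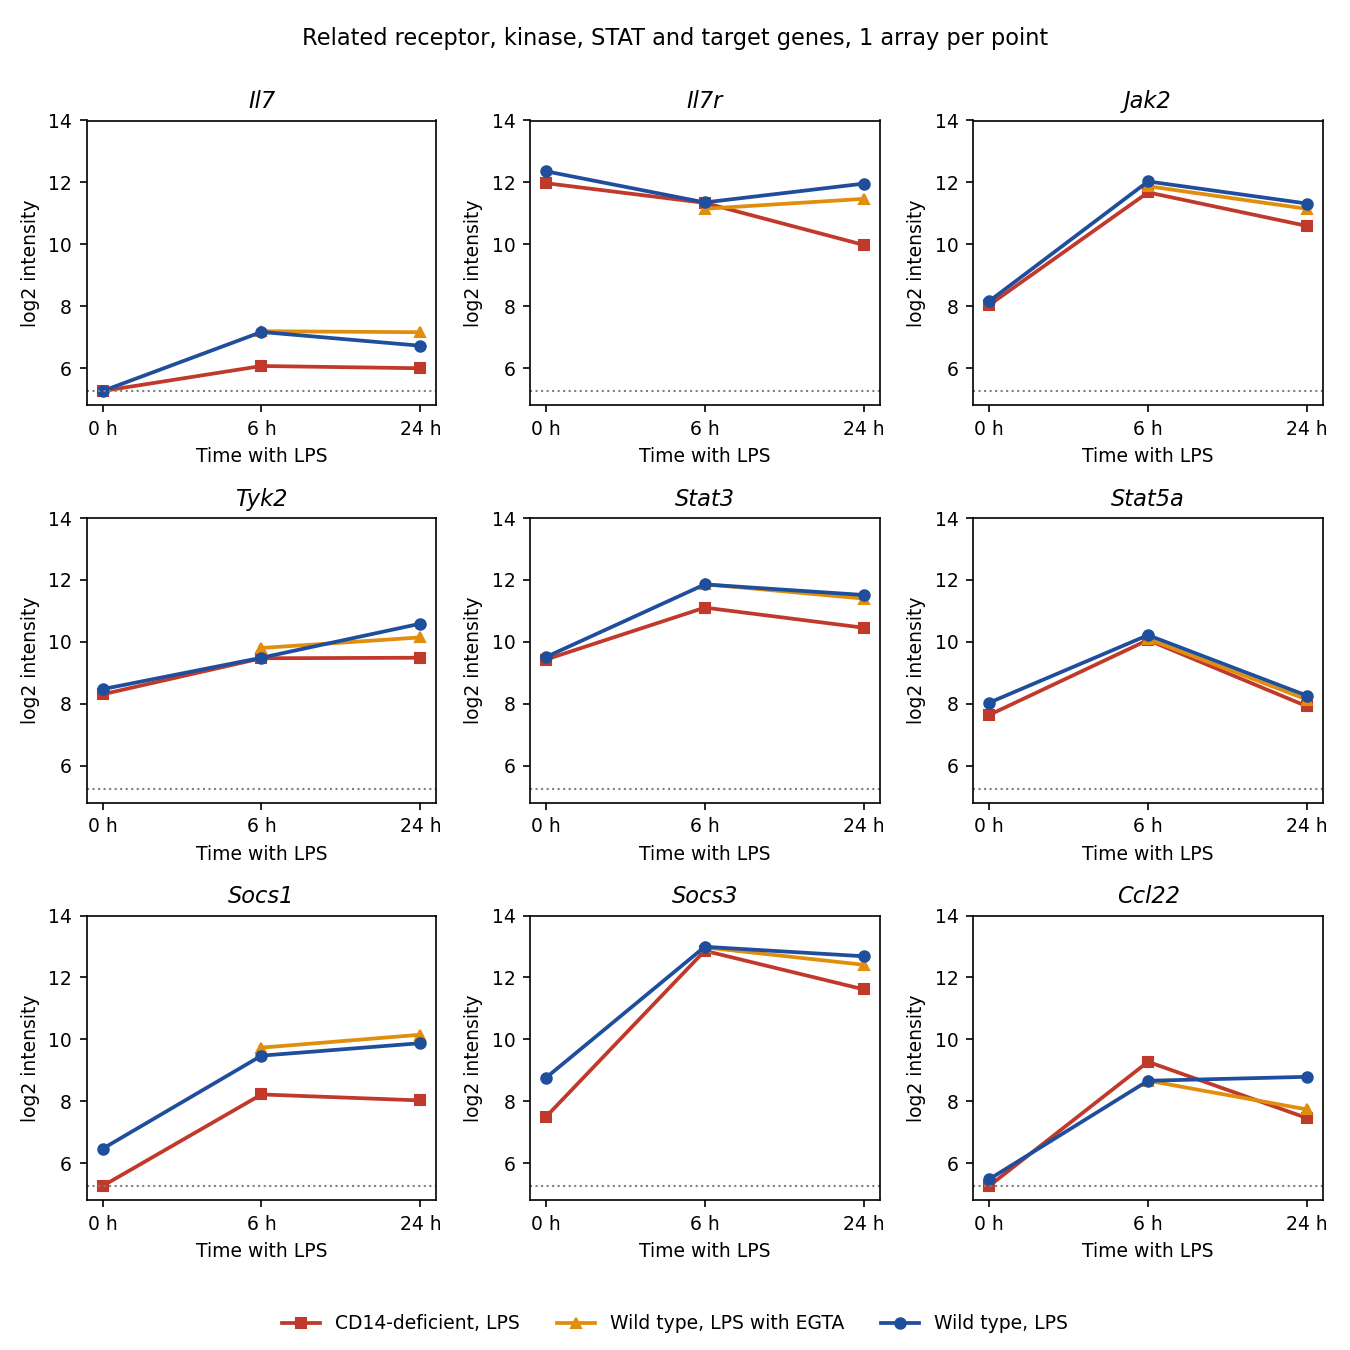
Log2 intensity (y axis) against time with LPS (x axis) for 9 related genes, drawn as in the plot of the family's values, with 1 array per point. The Il7r line of Cd14-/- cells is the lowest at 24 h (1011), below EGTA (2835) and wild type (3986).

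Genes most like each member were ranked by the Pearson correlation of log2 values over the 8 arrays, among 7291 other genes, as a description with no p-value. For Il15 these were Peli1 (0.998), Jdp2 (0.995) and Triobp (0.994), and for Il15ra they were Rnf19b (0.997), Parp8 (0.996) and Aida (0.996). Il4ra was most like Taf12 (0.997), Pcsk7 (0.992) and Med7 (0.991), and Il13ra1 most like Trim21 (0.990), Rnf135 (0.990) and Adap2 (0.986). For Il21r they were Alg12 (0.975), Eloa (0.974) and Arhgef18 (0.972). Il2ra, which was at the floor on 4 arrays, gave lower values, with Dcaf15 (0.940), Btrc (0.932) and Dcn (0.929). With so few arrays and so many genes searched, high values are easily found. Peli1, chosen because its values follow those of Il15, had its lowest LPS value in Cd14-/- cells at 24 h too. There it had 1209, against 2964 with EGTA and 3009.5 in wild type, which is no separate result.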

How the data were processed

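The deposited values are linear probe set intensities of 8 Affymetrix arrays, which the authors made with MAS5, per the submitters' processing notes. A common scaling target, detection calls and the genome build are not given in the sources used here. Trimmed means (2% off each end) of the deposited arrays ran from 314 to 527, so the intensities were quantile normalized (limma 3.58.1 in R 4.3.3), raised to a floor at the 40th percentile and log2 transformed. Names of probe sets came from the platform annotation, brought to current symbols through gene identifiers (20393 with 1 gene, 691 with several and not used, 1606 not listed). Each gene took the values of the probe set whose mean log2 was highest. The 9 comparisons set 1 array against 1 array. The limma fit with eBayes used additive time and condition terms, with Benjamini-Hochberg adjustment over 7292 genes, and was tested on simulated data. The number of arrays limits the precision.

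The rule for named genes was all members, Cd14, the 3 largest differences per comparison in each related list, of which a selection is given, and the 3 genes most similar to each member. Genes and markers at the floor, and the single values of Stat6, Ifit1 and Ccl22, were picked after they were seen. The members, lists and motifs were chosen with earlier results of these data known. Motifs were searched in RefSeq promoter windows. A further motif searched is not reported here. Alternatives covered scaling, floor, filter, probe set choice and the arrays in the fit.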

Additional observations from a re-analysis of the deposited data

Results flagged for a closer look

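Il21r was singled out because its difference between LPS at 6 h and unstimulated cells had opposite signs in the genotypes, at 0.05 on the log2 scale in Cd14-/- cells and -0.40 in wild type. The responses thus differed by 0.45. This difference was not tested, and neither response reached 2-fold. As deposited both responses were negative, at -0.48 in Cd14-/- cells and -0.64 in wild type. The medians of all genes as deposited were -0.46 and -0.17 there. With equal medians the responses were 0.05 and -0.43. The opposite signs thus depend on the scaling of the arrays. The Cd14-/- values, 85.4 unstimulated and 88.4 at 6 h, also lay close to the filter.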

How the results depend on the processing

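Of 133 counts of members under other settings, 126 equalled the value reported or stayed within 1.5 times it. Many of these were counts of 0 that stayed 0. They also include the members lower in Cd14-/- cells at 24 h, which fell from 3 to 2 as deposited and with the floor at the 50th percentile. As deposited, 2 members (in place of 1) were at least 2-fold lower in Cd14-/- cells at 6 h, 1 (in place of 0) was lower with EGTA at 6 h, and the CD14 term of the limma fit passed for 1 member (in place of 0). With equal medians, 5 in place of 3 were lower in Cd14-/- cells at 24 h. The 1 member lower with EGTA at 24 h, Il2ra, became 0 as deposited, with equal medians and with the floor at the 50th percentile. Why was not tested. No member difference of at least 2-fold changed sign. Of all genes, EGTA at 6 h gave 2 higher and 1353 lower as deposited against 37 and 18 normalized, with EGTA at 24 h 115 and 42 against 69 and 75. For Cd14-/- over wild type these were 99 and 447 against 171 and 208 at 6 h, and 1089 and 215 against 357 and 425 at 24 h. LPS at 24 h in wild type gave 365 and 2199 against 740 and 742, and LPS at 6 h in Cd14-/- cells 1412 lower against 623. With the floor at the 50th percentile EGTA gave 21 and 7 at 6 h and 41 and 41 at 24 h, and with the probe set of largest range 35 lower at 6 h. The CD14 term passed for 33 genes, against 10 without the EGTA arrays, 78 without the unstimulated ones, 233 as deposited and 14 with no filter. The EGTA term passed for 2 as deposited. Without the EGTA arrays the LPS terms passed for 1114 at 6 h and 926 at 24 h, against 2002 and 1950. No paired analysis was possible because each group has 1 array. Each array stands alone in its group, so leaving it out ends its comparisons.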
